A study of Mus musculus with 36 samples.

Results

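The positions of single-strand DNA breaks (SSBs) and of abasic (AP) sites were compared within the brain of 24-month-old male C57BL/6J mice. Of the 36 samples of the series, 24 have a list of positions, and 4 of these are from brain: 2 SSB libraries and 2 AP libraries, chosen by their labels. The other 20 libraries are SSB and AP profiles of bone marrow, heart, liver, PBMCs (mononuclear cells of peripheral blood) and sperm, prepared from mice of the same strain, sex and age. No young animals and no treatment belong to these samples, so all the groups share their age. According to the labels, SSB Brain 1 was made from the sample of AP Brain 1, and SSB Brain 2 from that of AP Brain 2, so the AP library of an animal was the reference for what sequencing and alignment can recover in the SSB library of the same animal. The labels describe 2 mice in all, so the samples of the other tissues may not be further animals. Whole organs were frozen and ground before DNA was isolated, so each library mixes all the cell types of the brain. A list of DNA lesions holds no expression, and the tissue label could not be checked against marker genes.

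An SSB is an interruption of the backbone of one DNA strand, arising from oxidative attack, from topoisomerase action or as an intermediate of repair. An AP site is a sugar that has lost its base, either spontaneously, which happens more readily to purines than to pyrimidines, or through a DNA glycosylase; AP endonuclease Apex1 then cuts the backbone beside it, and DNA polymerase beta and a ligase with the scaffold Xrcc1 fill and seal the gap. An AP site is thus an intermediate that repair turns into an SSB, and both lesions go through a shared set of enzymes. Neurons no longer divide, consume much oxygen and depend on this repair, and inherited loss of some of its factors causes neurological disease.

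The 2 SSB libraries held 361454 and 692370 positions, and the 2 AP libraries held 767089 and 712393. Almost every position was seen with a count of 1, and 0.185% to 0.400% of the positions of a library had a higher count. Positions rarely recurred: 620 positions on the same strand were found in both SSB libraries, which is 0.172% of the smaller and 0.0895% of the larger, and 1889 in both AP libraries, 0.265% of the smaller and 0.246% of the larger. An SSB library and an AP library shared 331 to 731 positions. No library was a copy of another, and a single base could not be compared between SSBs and AP sites at this depth.

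The sequence at the lesions is shown first with positions that occurred in both libraries of an assay and lay within a gene start sequence, meaning the 250 bases before and the 50 bases after an annotated gene start. There were 8 such SSBs and 9 such AP sites with their surroundings inside these sequences. The 8 SSBs and 8 of the AP sites are shown because they give the bases at and beside the listed positions of each lesion. Each sequence of 21 bases is from RefSeq GRCm38.p6 and is written 5′ to 3′ on the strand that carried the lesion, with the listed position in capitals.
SSB at the start of Zranb3, chr1:128103154-128103174, plus strand: acttagtcccGttctcccgct
SSB at the start of Slc50a1, chr3:89270734-89270754, minus strand: caaggggtgcGcagtgtgagg
SSB at the start of Rps6ka1, chr4:133873070-133873090, minus strand: tgagcctggcCcagcccccac
SSB at the start of Gm6408, chr5:146481776-146481796, minus strand: ctctctcttcCatgtgcacaa
SSB at the start of Lsm8, chr6:18848402-18848422, plus strand: tcccgtccgcTagagcctcct
SSB at the start of Pym1, chr10:128747653-128747673, plus strand: ccagaggaacTaaattgctga
SSB at the start of Olfr325, chr11:58580756-58580776, minus strand: cctcaacctgCctgtgctaag
SSB at the start of Drd3, chr16:43762231-43762251, plus strand: ctgtctgggcCatggcacctc
AP at the start of Gm17762, chr2:18027265-18027285, minus strand: gatatttcccAgcagtgtaag
AP at the start of Luzp1, chr4:136469522-136469542, plus strand: gcaccctcccAacgtctctga
AP at the start of Zfp790, chr7:29816055-29816075, plus strand: taaggaggctGttccgaattc
AP at the start of Gm36847, chr7:105482574-105482594, minus strand: gcctccgcccAgcgttggggc
AP at the start of Gm39199, chr8:76445912-76445932, minus strand: cccatttgccAagccttgtct
AP at the start of Flt4, chr11:49609519-49609539, plus strand: taacgtacgcAaagtgggcgc
AP at the start of Gm36709, chr11:108379008-108379028, minus strand: atggcggccgGgttgatagtt
AP at the start of Prss27, chr17:24038257-24038277, plus strand: agcttctgccAcctctgacca

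Counted over the 8 SSBs and the 9 AP sites, the AP position was a purine in 9 of 9 and the SSB position a pyrimidine in 6 of 8. A cytosine stood directly before 7 of the 8 SSBs and before 7 of the 9 AP sites, and at the next base upstream in 1 of 8 and 7 of 9. The contrast at the listed position was next counted over every position in the start sequences. Within the start sequences, 3852 and 6822 positions of the SSB libraries and 5855 and 5334 of the AP libraries were read, on the strand given for each. A purine stood at the listed position in 40.5% and 39.5% of the SSBs and in 73.7% and 72.2% of the AP sites. The groups did not overlap, and the SSB minus AP difference was -32.9 ± 0.41 percentage points (SD, n = 2 animals). Adenine made most of this difference. It stood at 5.74% and 4.81% of the SSBs and at 38.2% and 36.3% of the AP sites, whereas guanine was found at 34.8% and 34.7% of the SSBs and 35.6% and 35.9% of the AP sites. Cytosine was the commonest base at an SSB, with 41.9% and 40.9%, against 16.94% and 17.04% at an AP site. For comparison, adenine and thymine each make 23.3% of these sequences, and cytosine and guanine each 26.7%, counted over both strands.

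The bases before the lesion differed as well. One base upstream, cytosine was present in 56.9% and 54.7% of the SSBs, compared with 41.7% and 40.8% of the AP sites. At the next base upstream the order was turned, with cytosine in 43.5% and 41.2% of the SSBs and in 53.0% and 54.4% of the AP sites. Adenine was scarce at the position of the cytosine peak of each lesion: 3.98% and 4.66% at 1 base before an SSB, and 3.52% and 4.62% at 2 bases before an AP site. The base after an AP site was guanine in 39.0% and 38.5% of cases, against 27.8% and 25.5% after an SSB. Whether the listed coordinate is the lesion itself or the base beside it is not given in the sources used here, so the offsets hold relative to the listed position only. How much of these base patterns the steps of library preparation contribute was not tested. With 2 libraries against 2, an exact permutation test cannot give a two-sided p below 0.333, and every one of the measures above gave this p within brain.

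**Figure D1:**
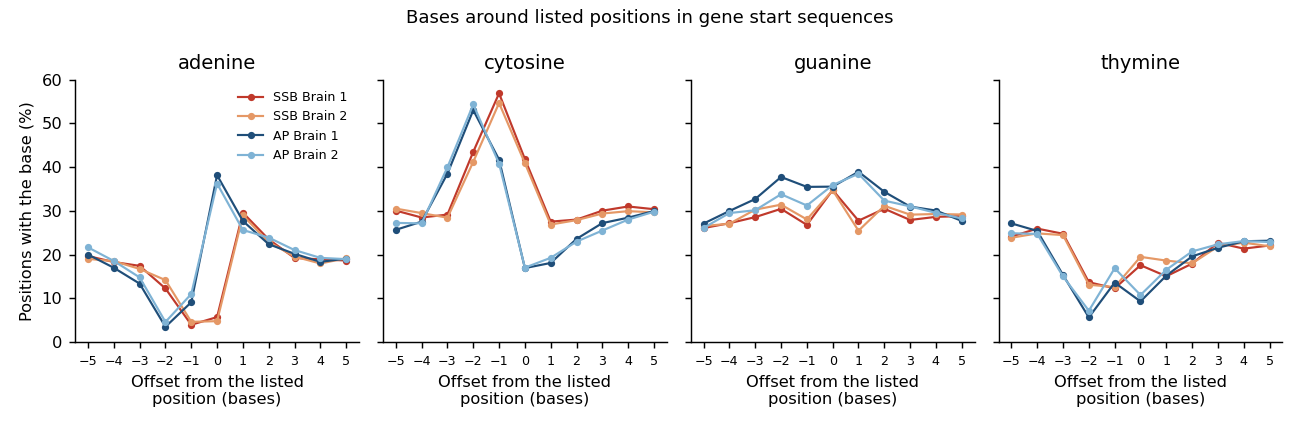
Share of listed positions (%, vertical axis) with each base at offsets of 5 bases before to 5 bases after the listed position (horizontal axis, read 5′ to 3′ on the strand of the lesion), for the 4 brain libraries in gene start sequences. At offset 0 the 2 AP lines reach 38.2% and 36.3% adenine while the 2 SSB lines are at 5.74% and 4.81%, and the cytosine peak lies at 1 base before an SSB and at 2 bases before an AP site.

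The base patterns of brain were close to those of the other tissues. The SSB share with a purine was 35.6% to 42.9% in the other 10 SSB libraries and the AP share 71.1% to 76.6% in the other 10 AP libraries, and the brain values lay within both ranges. An exact two-sided permutation test of the 2 brain differences against the 10 of the other tissue samples gave p = 0.439 for purines. This test treats the 2 samples of a tissue as independent, so its p can be too low. Cytosine at an SSB was higher in both brain libraries than in the others, which ranged from 35.7% to 39.8%, but the SSB minus AP difference of cytosine gave p = 0.106 in the exact test. Of 11 such measures, adenine 1 base after the lesion had the lowest exact permutation p, 0.0303, for an SSB minus AP difference of 2.60 ± 1.01 percentage points in brain (SD, n = 2) against -4.07 to 1.21 elsewhere, and the adjusted p over the 11 measures was 0.333.

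SSBs were enriched over AP sites at gene starts. Within 1 kb of the starts of protein-coding genes lay 3.18% and 3.01% of the SSBs and 2.48% and 2.38% of the AP sites, so that every SSB library was above every AP library. The log2 ratio of the shares was 0.35 in animal 1 and 0.34 in animal 2 (mean 0.35 ± 0.012 SD, n = 2). Close to the start the difference was larger. In the 200 bp before the start, the SSB density was 1339 and 1186 ppm per Mb (ppm, parts per 1e+06 of all positions of the library), and the AP density was 882 and 836, a ratio of 1.52 and 1.42. In the first 200 bp of the gene the ratio was 1.42 and 1.34, and at 4 to 5 kb before the start it had come down to 1.04 and 1.03. Both lesions were denser at starts than in the surroundings: the AP sites also rose from 428 and 419 at 4 to 5 kb before the start to 908 and 906 in the first 200 bp.

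The excess of SSBs at starts was largest in sequences rich in G and C. When the 32851 start sequences were divided into 4 classes of equal number by their G + C content, a division made after the values were seen, the class from 61.7% to 89.3% had an SSB density of 1627 and 1471 ppm per Mb and an AP density of 839 and 829. The log2 ratio was 0.96 and 0.83, and this class holds a median of 29 CpG dinucleotides per sequence. In the class from 52.7% to 61.7% the log2 ratio was 0.49 and 0.43. The classes below 45.7% and from 45.7% to 52.7% had log2 ratios of 0.29 and -0.13, and of 0.04 and 0.16. In the class of lowest G + C the ratio thus differed in sign between the animals. AP density itself was highest in the third class, with 1210 and 1107, and fell again in the fourth, whereas the SSB density was similar in both. The G + C content also moves with the bases found at each lesion, and its part in the excess was not tested.

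**Figure D2:**
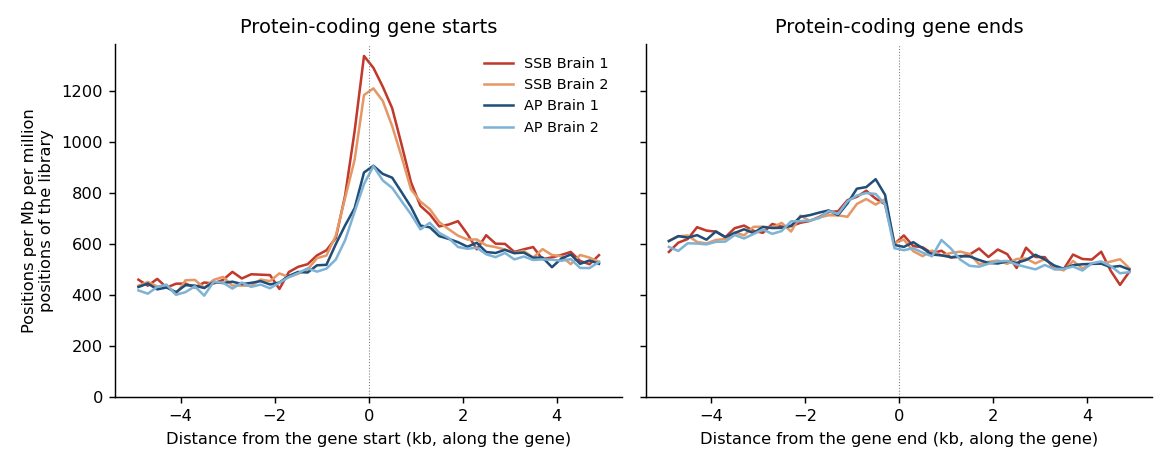
Density of listed positions in bins of 200 bp (ppm of the library per Mb, vertical axis) against distance from the starts (left) and ends (right) of protein-coding genes, along the gene, for the 4 brain libraries. The SSB lines rise above the AP lines at the start, with ratios of 1.52 and 1.42 in the last 200 bp before it. All 4 lines run close together at the ends, with ratios of 1.08 and 1.07 in the 200 bp after them.

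**Figure D3:**
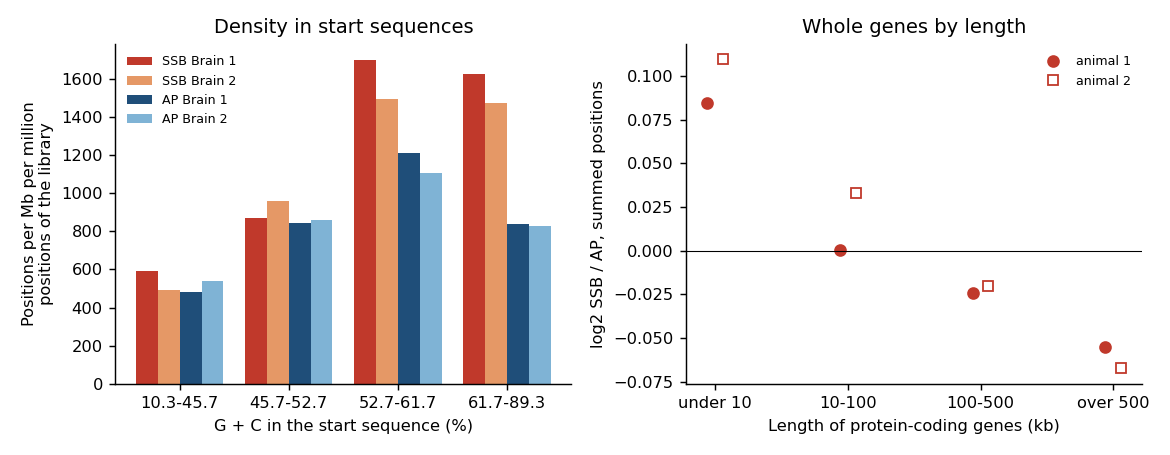
Left, density in the start sequences by class of G + C content for the 4 brain libraries, with bars starting at 0: both SSB bars stand above both AP bars in every class but the lowest, and by most in the class richest in G + C. In the class from 45.7% to 52.7% they do so by little (868 and 961 against 845 and 859). Right, log2 ratio of SSB to AP positions summed over protein-coding genes of 4 length classes, 1 symbol per animal, falling from 0.08 and 0.11 in genes under 10 kb to -0.05 and -0.07 in genes over 500 kb.

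Single starts could be compared only where enough positions fell, because a window of 1 kb on either side held at least 10 positions over the 4 libraries for 996 of 27025 starts. Of these, 4 passed the threshold (edgeR quasi-likelihood test, Benjamini-Hochberg adjusted p under 0.05), which is 0.402% of those tested, and all 4 had more SSBs. In the same test 94 had an unadjusted p under 0.05. The 4 reached the filter of 10 positions through their SSBs, with at most 2 AP positions each. All protein-coding starts together also held more SSBs (log2 ratio 0.35), so the direction of these 4 is no separate result. Osbp encodes a sterol-binding protein that moves lipid between endoplasmic reticulum and Golgi. Its start held 5 and 8 SSBs and no AP site in either library, a ratio of shares of 6.08 against a floor of 3 AP positions over both libraries, and the exact 95% interval of the counts begins at 4.28 (adjusted p = 0.0159). At the start of Rab5b, a small GTPase of early endosomes, 10 and 7 SSBs stood against 2 and 0 AP sites, a ratio of shares of 11.9 (exact 95% interval of the counts 2.83 to 106; adjusted p = 0.0343). Acat2, an acetyl-CoA acetyltransferase, had 5 and 9 SSBs and 1 and 0 AP sites, a ratio of 19.7 (2.99 to 831; adjusted p = 0.0343). Myl6, a myosin light chain of non-muscle cells, had 6 and 7 SSBs and 0 and 1 AP sites, a ratio of 18.3 (2.74 to 776; adjusted p = 0.0483). In each of these 4 starts both SSB libraries were above both AP libraries. Since the starts were picked by these same counts, that adds no evidence, and the share of all starts tested with this order was not counted. The windows of Acat2, Rab5b and Myl6 also hold parts of Gm15946, Pmel and Myl6b, and positions there cannot be assigned to a single gene.

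Stretches of 250 bases at 3 of these starts are shown because they hold several SSBs and no AP site of either library. Those of Osbp and Myl6 end directly before the annotated gene, and that of Rab5b, whose annotated start is at 128696284, includes its first bases. They are from RefSeq GRCm38.p6, on the strand of the gene and 5′ to 3′, with the bases at which an SSB was listed on either strand in capitals.
Osbp, chr19:11965594-11965843, plus strand: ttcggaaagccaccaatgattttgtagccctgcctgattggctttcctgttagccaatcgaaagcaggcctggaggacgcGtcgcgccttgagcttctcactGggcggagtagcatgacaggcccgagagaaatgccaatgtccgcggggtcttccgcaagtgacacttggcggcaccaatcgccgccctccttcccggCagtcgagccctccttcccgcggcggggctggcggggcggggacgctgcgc
Rab5b, chr10:128696269-128696518, minus strand: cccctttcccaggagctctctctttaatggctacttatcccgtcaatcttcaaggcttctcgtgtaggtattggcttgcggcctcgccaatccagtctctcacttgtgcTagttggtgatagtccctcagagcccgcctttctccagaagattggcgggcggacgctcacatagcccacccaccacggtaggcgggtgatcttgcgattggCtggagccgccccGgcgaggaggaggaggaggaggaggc
Myl6, chr10:128493887-128494136, minus strand: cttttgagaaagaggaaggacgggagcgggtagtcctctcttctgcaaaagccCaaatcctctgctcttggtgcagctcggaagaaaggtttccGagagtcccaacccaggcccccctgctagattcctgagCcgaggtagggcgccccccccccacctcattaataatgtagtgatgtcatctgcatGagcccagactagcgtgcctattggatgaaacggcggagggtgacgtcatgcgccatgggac

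The SSBs of the Osbp, Rab5b and Myl6 sequences number 3, 3 and 4, and none of them coincides with another. The G + C content of the start sequences, with the first 50 bases of the gene, is 67% for Osbp, 58% for Rab5b and 57% for Myl6, so Osbp is in the class richest in G + C and the others are in the class below. These calls rest on few positions. With TMM scaling or with DESeq2 size factors in edgeR, 1 of 996 starts passed instead of 4, and windows of 5 kb on either side gave none of 19598 (1063 at an unadjusted p under 0.05). With the animal as a block, Myl6 no longer passed (adjusted p = 0.0539). Without SSB Brain 1 no start passed, without SSB Brain 2 there was 1, without AP Brain 1 there were 3, and without AP Brain 2 there were 7, of which the start of Fscn2 had more AP sites (adjusted p = 0.0468 in that fit).

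Gene ends gave no such difference. Within 1 kb of the ends of protein-coding genes lay 2.20% and 2.15% of the SSBs and 2.24% and 2.17% of the AP sites, and the 2 groups overlapped. The log2 ratio was -0.03 and -0.01 (mean -0.02 ± 0.0093 SD, n = 2). The profiles of both lesions were similar there, with 783 and 767 SSBs and 823 and 786 AP sites (ppm per Mb) at 1000 to 200 bp before the end and 579, 564, 577 and 580 at the same distances after it. Small differences of either sign occurred within this reach. The ratio of SSB to AP density was 0.95 and 0.98 at 1000 to 200 bp before the end. In the 200 bp after the end it was 1.08 and 1.07, from 634 and 618 against 589 and 576. Of 518 end windows with at least 10 positions none passed the threshold (0%) by edgeR, with 41 at an unadjusted p under 0.05. The share of positions within annotated genes was also alike, with 61.4% and 61.4% of the SSBs and 61.8% and 61.4% of the AP sites (log2 ratio -0.0048 ± 0.0084 SD, n = 2).

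Within genes the SSBs lay more often on one strand. Of the positions within exactly 1 protein-coding gene, the coding strand, which has the sequence of the transcript and is not read by RNA polymerase, carried 53.3% of the SSBs in both libraries, 53.27% and 53.32%, and 50.7% and 50.3% of the AP sites. The difference was 2.61 percentage points in animal 1 and 3.04 in animal 2 (2.83 ± 0.31 SD, n = 2), and the groups did not overlap. It extended over the whole gene. In 5711 protein-coding genes of at least 10 kb that overlap no other annotated gene, the SSB minus AP difference was 3.12 and 5.18 percentage points in the first 1 kb, 3.10 and 3.09 in the interior, and 3.28 and 5.66 in the last 1 kb. In the 1 kb before the start the coding strand had the smaller share, and the difference was -2.11 and -3.79. In the 1 kb after the end the difference was 3.53 in animal 1 and 0.77 in animal 2. The AP sites of these genes stayed near equality in the interior, with 50.5% and 50.4% on the coding strand, beside 53.6% and 53.5% of the SSBs. In the first 1 kb the coding strand carried 53.5% and 51.7% of the SSBs and 50.3% and 46.5% of the AP sites. The larger difference of animal 2 there thus went with a low AP share, not with a higher SSB share. In the last 1 kb the shares were 54.1% and 54.9% for SSBs and 50.8% and 49.3% for AP sites.

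**Figure D4:**
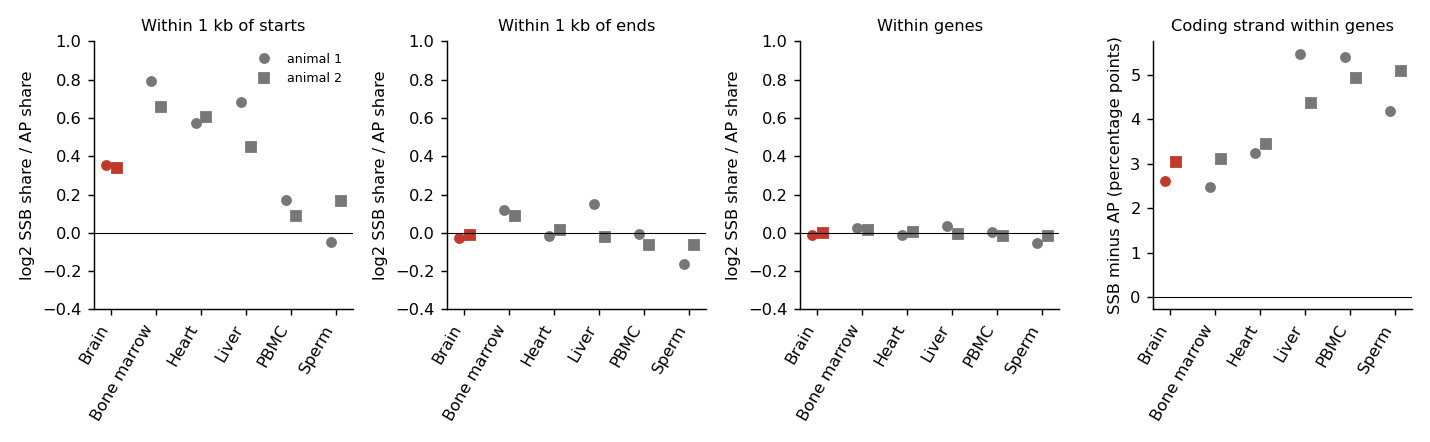
SSB against AP difference per tissue sample for the share within 1 kb of protein-coding starts, within 1 kb of ends and within genes (log2 ratio of shares) and for the coding strand within genes (percentage points), with circles for animal 1 and squares for animal 2 and brain in red. Brain lies at 0.35 and 0.34 for starts, inside the range of -0.05 to 0.79 of the other tissues, and at 2.61 and 3.04 for the coding strand, inside their range of 2.47 to 5.48.

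Whole genes were compared next, by the positions in ppm per kb of gene (LPKM). The study's LPKM is counted over exons and its printed formula has another scale, whereas whole gene spans were used here, so the levels cannot be set beside those of the study. A gene with at least 20 positions over the 4 libraries was tested, which left 16551 of 49943 genes with a median of 46 positions. The median standard error of the log2 ratio was 0.43. The 95% interval of a typical gene thus spans a 1.79-fold change in either direction. This interval is not adjusted for the number of genes tested. At this depth a difference in such a gene had to be larger than that to pass the threshold. 1 gene passed the threshold (0.00604% of those tested), although 1136 had an unadjusted p under 0.05.

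This gene was Tmem267 (chr13:119488086-119610459, GRCm38), which encodes a predicted membrane protein. It held 37 and 83 SSBs and 24 and 30 AP sites, which is 102 and 120 ppm of the SSBs against 31.3 and 42.1 ppm of the AP sites. Both SSB libraries were well above both AP libraries, with a log2 ratio of 1.63 ± 0.23 (SE) and an adjusted p of 2.12e-08 by edgeR. A single stretch of 10 kb, chr13:119590001-119600000, held 14 and 53 of the SSBs and 7 and 5 of the AP sites. In the rest of the gene the log2 ratio was 1.52 in animal 1 and 0.30 in animal 2. The stretch chr13:119500001-119590000, directly before these 10 kb, held no position of either lesion in any brain library. Most of the span of the gene thus gave no values, and whether it can be aligned was not tested. The gene 3110070M22Rik overlaps Tmem267 and shares positions with it. The excess was not restricted to brain: in bone marrow, heart, liver, PBMCs and sperm the SSB rate of Tmem267 was 92.1, 103, 111, 121 and 110 ppm and the AP rate 26.5 to 38.5. The call was lost with DESeq2 (log2 ratio 1.62, adjusted p = 0.117), when all libraries were thinned to 361454 positions (1.70, adjusted p = 0.973), and without SSB Brain 2 (1.48, adjusted p = 0.205).

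With all 4 libraries no gene passed the threshold with more AP sites. The 5 genes of lowest p on this side are named here after their values were seen. Gm4657, a predicted gene, held 1 and 1 SSBs and 21 and 9 AP sites (log2 ratio -3.29 ± 0.73 SE, adjusted p = 0.0523 by edgeR), and it passed without AP Brain 2 (log2 ratio -3.71, adjusted p = 0.00977). D430042O09Rik held 29 and 65 SSBs and 116 and 102 AP sites (log2 ratio -0.72 ± 0.18, adjusted p = 0.128). Grik4, a subunit of the kainate receptors for glutamate, held 88 and 198 SSBs and 287 and 256 AP sites, an LPKM of 0.570 and 0.670 for SSBs against 0.877 and 0.842 for AP sites (log2 ratio -0.44 ± 0.11, adjusted p = 0.130). Alk, a receptor tyrosine kinase, held 134 and 264 SSBs and 386 and 338 AP sites (log2 ratio -0.37 ± 0.09, adjusted p = 0.138). Auts2, a long gene of neuronal development, held 195 and 352 SSBs and 498 and 462 AP sites (log2 ratio -0.32 ± 0.08, adjusted p = 0.138). On the side of the SSBs, the 4 genes of lowest p after Tmem267 were Brinp3, Pign, Elovl7 and Ahdc1. Brinp3, which encodes a neural protein induced by retinoic acid, held 41 and 77 SSBs and 51 and 40 AP sites (log2 ratio 0.86 ± 0.20, adjusted p = 0.101). Pign, an enzyme of the synthesis of membrane anchors, held 21 and 40 SSBs and 19 and 16 AP sites (1.28 ± 0.30, adjusted p = 0.101), and Elovl7, a fatty acid elongase, and Ahdc1 had log2 ratios of 1.10 ± 0.28 and 0.84 ± 0.21 (adjusted p = 0.138 for both). The libraries of these genes did not overlap between the assays, but 17.7% of all genes tested had both SSB values above both AP values and 18.3% had both below, so the absence of overlap alone marks no gene.

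**Figure D5:**
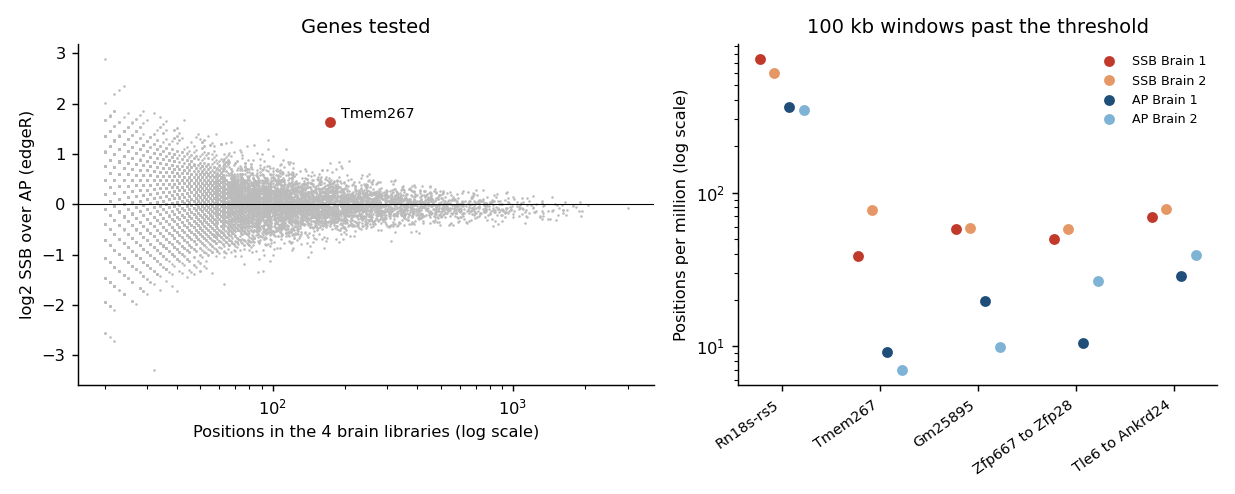
Left, log2 ratio of SSB to AP against the number of positions in the 4 brain libraries (log scale) for the 16551 genes tested, with the gene past the threshold, Tmem267, in red at 1.63. Right, positions in ppm (log scale) in each brain library for the 5 windows of 100 kb past the threshold, named by genes they hold, with both SSB points above both AP points in every window.

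The length of a gene moved with the balance of the lesions. Protein-coding genes under 10 kb had a summed LPKM of 0.862 and 0.845 for SSBs and 0.813 and 0.784 for AP sites, a log2 ratio of 0.10 ± 0.017 (SD, n = 2). Genes from 10 to 100 kb had a log2 ratio of 0.02 ± 0.023, those from 100 to 500 kb of -0.02 ± 0.0029, and those over 500 kb of -0.06 ± 0.0087. The 227 genes over 500 kb had an LPKM of 0.375 and 0.380 for SSBs and 0.390 and 0.399 for AP sites. Among them 35 had both SSB values above both AP values and 84 had both below, against 17.7% and 18.3% of all genes tested. None of them passed the threshold (0.00604% of all genes tested did), and 39 had an unadjusted p under 0.05. The vicinity of the start, where SSBs were in excess, makes up more of a short gene than of a long one, and its part in this order was not tested.

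Genes of brain function showed no difference past the threshold. Of 70 tested synaptic adhesion and other large neuronal genes (71 listed), none passed in either direction, 17 had both SSB values above both AP values and 19 had both below (17.7% and 18.3% of all genes tested, of which 0.00604% passed), and the median log2 ratio was -0.00087 beside 0.0018 over all genes tested. These genes hold many positions and were measured more precisely than others: the median standard error was 0.10, and 64 of 70 had a log2 ratio within 0.5 of zero. An unadjusted p under 0.05 by edgeR was found for 13 of the 70, against 1136 of all 16551 genes tested. Lsamp, a cell adhesion protein of limbic neurons, had 251 and 608 SSBs and 604 and 600 AP sites (log2 ratio -0.01 ± 0.07). Macrod2, an ADP-ribose hydrolase, had 273 and 533 SSBs and 565 and 528 AP sites (0.05 ± 0.07). For Rbfox1, a neuronal splicing regulator, the SSB values were both lower, with an LPKM of 0.480 and 0.430 against 0.503 and 0.554 (-0.24 ± 0.07, adjusted p = 0.358 by edgeR).

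Receptors and channels were tested in the same way. Of 26 glutamate receptor genes none passed, 6 had both SSB values higher and 6 both lower (17.7% and 18.3% over all genes tested, of which 0.00604% passed), and the median log2 ratio was -0.01 beside 0.0018 over all genes. Besides Grik4, the delta receptor gene Grid1 was among the members with most positions (-0.14 ± 0.10). Of 20 tested GABA receptor genes, which mediate fast and slow inhibition, none passed and the median was 0.04. Gabbr2 had a log2 ratio of 0.15 ± 0.11, Gabrg3 of -0.36 ± 0.14 and Gabrb1 of 0.08 ± 0.16. Of 40 voltage-gated channel genes none passed and the median was 0.12, while the summed list had a log2 ratio of -0.0015 in animal 1 and -0.015 in animal 2. The calcium channel genes Cacna2d3 and Cacna1c had log2 ratios of -0.26 ± 0.09 and -0.13 ± 0.09, and the potassium channel gene Kcnma1 of -0.15 ± 0.09. By edgeR, 4 of the 26 glutamate receptor, 3 of the 20 GABA receptor and 2 of the 40 channel genes had an unadjusted p under 0.05. Of all 16551 genes tested, 1136 had one.

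Marker genes of the cell types of the brain held no gene past the threshold, which 0.00604% of all genes tested passed. Of 15 tested neuron markers none passed, and the summed LPKM was 0.668 and 0.657 for SSBs and 0.611 and 0.601 for AP sites, a log2 ratio of 0.13 in both animals. Rbfox3, the antigen NeuN, had 0.14 ± 0.10, Syt1, the calcium sensor of synaptic vesicles, 0.01 ± 0.12 and Map2, a dendritic cytoskeleton protein, 0.05 ± 0.18. The 11 tested astrocyte markers had a log2 ratio of -0.06 and -0.16, with Slc4a4 at -0.05 ± 0.12, and the glutamate transporters Slc1a2 at -0.29 ± 0.18 and Slc1a3 at -0.02 ± 0.25. The 12 oligodendrocyte markers had -0.15 and 0.01, with Mbp, the myelin basic protein, at 0.15 ± 0.17, St18 at 0.12 ± 0.17 and Myrf at 0.19 ± 0.32. These named genes do not stand for the 12, of which 41.7% were above 0, with a median of -0.34. Over all genes tested 50.1% were above 0, with a median of 0.0018. The 5 microglia markers had -0.16 and 0.27, with Csf1r at 0.18 ± 0.34, P2ry12 at 0.10 ± 0.36 and Itgam at 0.02 ± 0.44. The 9 endothelial markers had -0.08 and -0.07, with Flt1 at -0.32 ± 0.19, Abcb1a at 0.25 ± 0.27 and Kdr at -0.02 ± 0.30.

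Immediate early genes, which neuronal activity induces within minutes, had a summed LPKM of 0.799 and 0.839 for SSBs and 0.722 and 0.693 for AP sites over 22 genes, a log2 ratio of 0.21 ± 0.091 (SD, n = 2). Only 9 of them had enough positions to be tested and none passed (0.00604% of all genes tested did). Homer1, Bdnf and Nr4a3, those with most positions, had log2 ratios of 0.24 ± 0.31, 0.21 ± 0.32 and 0.29 ± 0.34 (SE). Within 1 kb of the starts of 18 of these genes, the rate per start was 2.61 and 2.65 SSBs and 2.53 and 2.81 AP sites ppm, which overlapped.

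No gene of the repair of these lesions passed the threshold. Only 0.00604% of all genes tested passed it, so a list this short without a call says little about its genes. Of 10 tested genes of SSB repair none passed, and the log2 ratio of the summed list was -0.12 in animal 1 and 0.10 in animal 2. Tdp1, which clears topoisomerase from DNA ends, had 0.01 ± 0.28, Parg, which removes poly(ADP-ribose), -0.34 ± 0.30, and Lig1, a DNA ligase, 0.23 ± 0.33. Of 9 tested genes of the base excision repair of AP sites none passed, and the list had log2 ratios of 0.07 and -0.28. Apex2, an AP endonuclease, had 0.04 ± 0.35, Neil3, a glycosylase, -0.78 ± 0.39, and Hmces, which binds AP sites in single-stranded DNA, -0.18 ± 0.58. At the starts of the 11 SSB repair genes with a known start, there were 3.27 and 3.02 SSBs and 1.78 and 1.91 AP sites per start (in ppm), from 13, 23, 15 and 15 positions. The starts of 12 base excision repair genes had 2.997 and 1.81 SSBs and 3.37 and 1.99 AP sites, and all 17492 protein-coding starts 1.97 and 1.86 SSBs and 1.52 and 1.46 AP sites, in the same unit. The excess of SSBs, which all protein-coding starts also had, appeared in the first of these lists and not in the second. The difference between the lists was not tested. Both SSB rates were also above both AP rates at the starts of the synaptic adhesion, glutamate receptor, GABA receptor, voltage-gated channel and Hox lists. At the starts of neuron, astrocyte and heart markers the rates overlapped, so the excess was not particular to repair genes.

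Gene families and genes of other tissues served as a contrast, beside all genes tested, of which 0.00604% passed the threshold. Ribosomal protein genes, which are short, had the start rate of 2.51 and 2.60 SSBs and 2.12 and 1.62 AP sites (ppm per start) over 64 starts, with both SSB libraries higher. Of them 5 could be tested as whole genes and none passed (Rps15a 0.92 ± 0.57, Rpl5 -0.50 ± 0.66, Rpl3 0.34 ± 0.63). The starts of 944 olfactory receptor genes gave 1.08 and 1.03 SSBs and 1.03 and 1.10 AP sites per start (in ppm), which overlapped, and those of 323 vomeronasal receptor genes 0.668, 0.604, 0.666 and 0.634 in the same order. Over whole genes none of 6 tested olfactory and 7 tested vomeronasal receptor genes passed, among them Olfr1393 (0.48 ± 0.43), Olfr78 (0.04 ± 0.57), Olfr687 (0.70 ± 0.57), Vmn2r1 (-0.38 ± 0.33), Vmn2r2 (-0.33 ± 0.49) and Vmn2r29 (0.48 ± 0.55). Of 10 tested Hox genes none passed, and Hoxa3, Hoxb3 and Hoxd3 were at 0.00 ± 0.29, -0.11 ± 0.30 and 0.08 ± 0.30. Heart markers (11 tested, with Ryr2 at -0.13 ± 0.12, Ttn at -0.18 ± 0.13 and Myocd at -0.67 ± 0.24), liver markers (10 tested, with Cps1 at 0.66 ± 0.25, Hnf4a at -0.33 ± 0.29 and Abcb11 at 0.71 ± 0.31), blood markers (9 tested, with Runx1 at -0.26 ± 0.14, Ikzf1 at -0.18 ± 0.24 and Ptprc at 0.35 ± 0.26) and sperm markers (10 tested, with Spag16 at -0.23 ± 0.12, Dnah8 at -0.22 ± 0.18 and Dnah1 at -0.48 ± 0.22) held no gene past the threshold. The named liver markers do not stand for their list. Its median log2 ratio was -0.32, with 30% of members above 0, beside 0.0018 and 50.1% over all genes tested. Of its 10 tested genes, 2 had both SSB values above both AP values and 6 had both below (17.7% and 18.3% over all genes tested).

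Windows of 100 kb do not depend on the annotation. Of 27236 windows, 24406 had at least 20 positions, and 5 passed the threshold (0.0205%), all with more SSBs; 1612 had an unadjusted p under 0.05. The window chr17:39800001-39900000 holds Rn18s-rs5 and AY036118, copies of the ribosomal RNA transcription unit. It had 266 and 415 SSBs and 277 and 246 AP sites, which is 736 and 599 ppm against 361 and 345 (log2 ratio 0.89 ± 0.11 SE, edgeR adjusted p = 6.47e-11). A single stretch of 10 kb in it held 97.9% of these positions. Ribosomal RNA genes are repeated in the genome and present as few copies in the assembly, so positions from many copies may be piled up there, and their number per copy is not known.

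The window chr13:119500001-119600000 is part of Tmem267 and had 14 and 53 SSBs and 7 and 5 AP sites, all in its last 10 kb (log2 ratio 2.94 ± 0.38, adjusted p = 9.41e-11). The window chrX:153900001-154000000, with Gm25895 as its annotated gene, had 21 and 41 SSBs and 15 and 7 AP sites (1.97 ± 0.33, adjusted p = 2.93e-05). The window chr7:6300001-6400000 holds a cluster of zinc finger genes, Zfp667, Zfp583, Zfp78 and Zfp28, and had 18 and 40 SSBs and 8 and 19 AP sites (1.58 ± 0.32, adjusted p = 0.00626). The window chr10:81600001-81700000 holds Tle6, Ankrd24 and Sirt6, a deacylase of chromatin that takes part in DNA repair, and had 25 and 54 SSBs and 22 and 28 AP sites (1.14 ± 0.26, adjusted p = 0.0482), but not with the animal as a block (adjusted p = 0.0820). In each of these 5 windows the rates of both SSB libraries were above those of both AP libraries. The windows were picked by these same counts, so the separation adds no evidence. How many of all windows tested are separated in this way was not counted. In the other tissues, the SSB rate was above the AP rate in 5 of 5 for 4 of the windows and in 3 of 5 for the zinc finger cluster. The number of windows past the threshold was 1 without SSB Brain 2, 3 without either AP library, 4 without SSB Brain 1, 1 with DESeq2 and 0 at equal depth.

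No window of 100 kb passed with more AP sites. The lowest p was that of chr5:36000001-36100000, with parts of Afap1 and Sorcs2, a receptor of neurotrophins in neurons, where 30 and 57 SSBs stood against 109 and 101 AP sites (log2 ratio -0.78 ± 0.19, adjusted p = 0.0877). Next were chr3:3500001-3600000 with Hnf4g (3 and 4 against 21 and 20, adjusted p = 0.181), chr11:108700001-108800000 with Cep112 (5 and 26 against 46 and 47, adjusted p = 0.240), chr17:72300001-72400000 within Alk (13 and 34 against 68 and 55, adjusted p = 0.301) and chr4:102500001-102600000 with Pde4b (16 and 30 against 65 and 56, adjusted p = 0.301).

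Over longer stretches more positions fall in each window. Of 2606 windows of 1 Mb, 29 passed the threshold (1.11%), 15 with more SSBs and 14 with more AP sites. Those with more SSBs held a median of 31 protein-coding genes, those with more AP sites a median of 7.5, and all windows tested a median of 6. The largest excess of SSBs by p was at chr17:39000001-40000000, which includes the ribosomal RNA window (292 and 465 SSBs, 325 and 301 AP sites, log2 ratio 0.77 ± 0.08). It was followed by chr5:137000001-138000000 with 39 protein-coding genes (202 and 417 against 331 and 303, 0.45 ± 0.09), by chrX:153000001-154000000 with 10 (63 and 132 against 79 and 74, 0.84 ± 0.16) and by chr7:44000001-45000000 and chr10:81000001-82000000, each with 51 (0.39 ± 0.08 and 0.39 ± 0.08). On the AP side the lowest p belonged to chr11:65000001-66000000 with 6 protein-coding genes (165 and 305 SSBs, 469 and 397 AP sites, -0.39 ± 0.09), and 5 of the 14 windows lay between 129 and 136 Mb of chromosome 7.

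The same tendency was seen when the 100 kb windows were grouped by the number of protein-coding genes they touch. Windows with none received 26.2 and 26.4 SSBs and 26.2 and 26.8 AP sites per window (in ppm), and windows with 10 or more received 87.7 and 84.2 SSBs and 80.0 and 76.8 AP sites. Both lesions were more frequent where genes are dense, and the log2 ratio moved from 0.00 and -0.03 in windows without genes to 0.06 and 0.09 with 5 to 9 genes and 0.13 and 0.13 with 10 or more. Over 2493 windows of 1 Mb with at least 200 positions, the densities of the 2 lesions were close to each other, with a Pearson correlation of the log2 rates of 0.968 in animal 1 and 0.976 in animal 2, beside 0.973 between the SSB libraries and 0.984 between the AP libraries. These windows share mappability and base composition, so the correlations describe the landscape and were not tested. The log2 ratio of SSB to AP had a Pearson correlation of 0.27 (Spearman 0.27) between the animals, which share no library, and of 0.44 (Spearman 0.41) with that of the other tissues pooled, also across windows. With the number of protein-coding genes it was 0.02 (Spearman -0.05).

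Chromosomes differed by small amounts. Chromosome X received 1.80% and 1.83% of the SSBs and 1.63% and 1.70% of the AP sites (log2 ratio 0.15 and 0.11). Chromosomes 1, 3, 6, 8, 10 and 18 also had both SSB shares above both AP shares, chromosome 3 with 5.63% and 5.70% against 5.37% and 5.44%. Chromosomes 9 and 19 had both below, with log2 ratios of -0.09 and -0.09, and of -0.10 and -0.08, and chromosomes 2, 5, 7, 11, 16 and 17 did as well, by less.

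Whether any of these differences was larger or smaller in brain than elsewhere was tested with the other 5 tissues. Among 22954 genes and 25264 windows of 100 kb, none had a ratio of SSB to AP in brain past the threshold against the mean of the other tissues (edgeR interaction test, 0% and 0%), while 1122 genes and 1317 windows had an unadjusted p under 0.05. For single values the 2 brain samples were compared with the 10 others by an exact two-sided permutation test, which cannot give a p below 0.0152. It treats the 2 samples of a tissue as independent, although they resemble each other, so its p can be too low. The log2 ratio at gene starts, 0.35, lay within the range of -0.05 to 0.79 of the others, of which 9 of 10 were above 0 (exact p = 0.758). In the start sequences richest in G + C, all 10 were above 0, from 0.11 to 1.83 (exact p = 0.742). The ratio at gene ends had an exact p of 0.773 and that within genes an exact p of 0.879. The coding-strand difference was above 0 in all 10 others, from 2.47 to 5.48 percentage points, and the brain mean of 2.83 lay near the lower end of this range (exact p = 0.136).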

How the data were processed

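The brain DNA of 2 male C57BL/6J mice of 24 months was profiled by SSiNGLe (SSBs) and SSiNGLe-AP (AP sites). As deposited by the authors, each library is a list of single-base positions with strand and a raw count of reads at each, not normalized and not pooled. The submitters' processing notes name mm10 and GRCm38; the aligner and filters are not given in the sources used here. A position entered once whatever its count, which is how the study defines LPKM. Positions were assigned to 49943 RefSeq genes of GRCm38.p6 (whole spans, since exons were not used here), to windows of 100 kb and 1 Mb, and to 1 kb on either side of gene starts and ends; the strand, known for 79.9% of protein-coding genes, came from the start sequences supplied with the annotation.

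Features with at least 20 positions (10 for starts and ends, 60 over the 24 SSB and AP libraries for the comparison of tissues) were tested in edgeR 4.0.16 (R 4.3.3; quasi-likelihood F test, library size all positions, no further scaling, and, as the planned dispersion trend could not be fitted there, no abundance trend for starts and ends), with Benjamini-Hochberg adjustment over all features tested at 0.05. Single values were compared by two-sided exact permutation tests. SEs of log2 ratios were the ratio divided by the root of the F statistic. Alternatives were TMM, DESeq2 size factors, DESeq2 1.42.0, other filters, summed counts, equal depth, left-out libraries and the animal as a block, the pairing of SSB and AP library being given by the labels. The scripts were tested on simulated data. Intervals and floors cover counting error only. The text names features past the threshold whose groups do not overlap (at most 10 genes, or 5 windows, starts or ends, in each direction, by p), the 5 windows of lowest p in each direction, and the 3 members of each list with most positions; one such gene and one sequence are not reported here, and others were chosen after their values were seen. The lists and comparisons were chosen with earlier results of these data known. Python 3.11.15 was used.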

Additional observations from a re-analysis of the deposited data

Results flagged for a closer look

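For 4 values, both brain samples lay on one side of zero and both samples of another tissue on the other. These differences were not tested for the pairs of tissues, and 19 values in 5 other tissues were looked at in this way. At gene ends, the log2 ratio of SSB to AP was -0.03 and -0.01 in brain and 0.12 and 0.09 in bone marrow, a difference of -0.12. Guanine at the listed position was less frequent in SSBs than in AP sites of brain by 0.77 and 1.18 percentage points, and more frequent in both samples of bone marrow and of liver, so that brain minus bone marrow was -2.27 and brain minus liver -2.82 percentage points. Adenine 1 base after the lesion was more frequent in SSBs of brain (SSB minus AP 1.89 and 3.32 percentage points) and less frequent in heart, liver and sperm, which brain exceeded by 6.02, 3.37 and 3.84 percentage points. In start sequences of 45.7% to 52.7% G + C, the log2 ratio was 0.04 and 0.16 in brain and below 0 in PBMCs and sperm, a difference of 0.19 and 0.32.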

How the results depend on the processing

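The gene count of 1 became 0 with DESeq2 (77 at an unadjusted p under 0.05) and 0 at equal depth, and ranged from 0 (without SSB Brain 2) to 2 with a library left out (Tmem267 at an adjusted p of 0.205 without SSB Brain 2), where Gm4657 was called with more AP sites without AP Brain 2. The count of 100 kb windows, 5, was 1 with DESeq2, 0 at equal depth, 8 with summed counts, 3 on autosomes and 3 without the densest 10 kb stretches, 29 with windows of 1 Mb, and 1 (without SSB Brain 2) to 4 with a library left out. Without the densest stretches the ribosomal RNA window had a log2 ratio of -0.59, since its stretch with 97.9% of the positions is then left out. Starts past the threshold, 4, were 1 with TMM, 1 with DESeq2 size factors and 0 with 5 kb windows, and 0 (without SSB Brain 1) to 7 (without AP Brain 2) with a library left out; gene ends gave 1 with 5 kb windows. With the replicate block, pairing the libraries of an animal, the counts were 1 gene, 4 windows, 3 starts and 0 ends, and no feature passed the test of brain against the other tissues. The block ended the calls of Myl6 and of the Tle6 to Ankrd24 window. The filter of 20 positions on starts and ends left 7 and 6 windows and was not run. The share ratio at starts was 0.43 within 500 bp, 0.15 within 5 kb and 0.26 over all annotated genes; at ends it was 0.0036, 0.0063 and -0.0062. The log2 ratio or difference of a single animal was 0.34 to 0.35 at starts, -0.03 to -0.01 at ends, -0.011 to 0.0011 within genes, 2.61 to 3.04 percentage points for the coding strand and -33.2 to -32.6 for purines (the last chosen after the data were seen). With 2 animals and few positions per start, single starts could show large differences only.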
